A study of Homo sapiens with 9 samples.

Results

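The mesenchymal transition genes examined here are 36 genes that mark or drive the change of epithelial cells into migratory, fibroblast-like ones. They were taken by symbol, and a probe set (a group of short probes read as 1 value) counted for a gene only where the array annotation gave it that symbol alone. This gave 122 probe sets for 35 of the 36 genes, among 54613 probe sets and 19775 genes on the array, and FOXC1 was not analysed here. For each gene the values below are those of the brightest such probe set, judged by its mean level on all 9 arrays.

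The cells were MDA-MB-231, an established human triple-negative breast cancer line, in 3 groups of 3 biological replicates: Qmimic, Dmimic and AllStar. Wells of 600000 cells were reverse transfected with 10 nM of a small RNA in a lipid reagent, and total RNA was taken 48 h later for 1 HG-U133 Plus 2.0 array per well. AllStar is the negative control. Both miR-34a and AXL, a receptor tyrosine kinase, are in the title of the series, but the labels neither explain the letters Q and D nor give the mimics' sequences. All groups thus share the transfection, untransfected cells were not analysed here, and the model is a single cell line.

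In epithelial-mesenchymal transition, transcription factors of the SNAI, ZEB and TWIST families repress E-cadherin and other junction genes, while vimentin, N-cadherin, fibronectin and contractile proteins increase. MDA-MB-231 is a line known for such a mesenchymal-like state. YAP1 and its TEAD partners drive matricellular genes such as CCN1 and CCN2, and the SRF cofactors of the MRTF family drive many actin and contractile genes.

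The mature microRNA that the series title names is shown for orientation, from RefSeq (GRCh38.p14, chr1:9151735-9151756, minus strand). Capitals mark its seed, bases 2 to 8, the stretch through which a microRNA recognises its targets. The labels do not say whether either mimic carries it.
hsa-miR-34a-5p: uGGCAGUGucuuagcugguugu

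The third AllStar array differed from all others, so the comparisons are given with and without it. Its correlation with the others over all probe sets was 0.974 to 0.981, against 0.993 to 0.998 among those 8. Of the 35 genes, 24 lay lower on it than the mean of AllStar replicates 1 and 2, at a median difference of -0.27 in log2. SNAI1 (0.85) and FOXC2 (0.92) were among those that lay higher, and ZEB2 (-0.86), YAP1 (-0.78) and SNAI2 (-0.76) among those that lay lower. Over all probe sets the same difference varied with the log2 level on AllStar replicates 1 and 2. The median was 0.13 at levels up to 4 and 0.21 at 4 to 6. It was -0.26 at 6 to 8, -0.45 at 8 to 10 and -0.32 above 10, so the shift was not particular to this set. The 18S ribosomal RNA probe sets of AllStar replicate 3 read 8.73, against 5.27 to 6.26 on the other arrays. The part of the ribosomal signal in the results below was not tested. So few arrays set the precision, with a median 95% half-width of 0.29 in log2 for a member against AllStar, and 0.18 without that array. Where a gene's level is lower in bulk RNA, fewer cells with it and less RNA per cell cannot be told apart.

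The label of the set was checked against its levels in these cells. Levels are log2 RMA values, in which 1 unit is a doubling, and because probes differ in brightness they compare arrays and not genes. For 20 genes even the lowest value on any array lay above the highest of the arrays' upper quartiles, among them VIM, CD44, SNAI2, ZEB1 and CAV1. CDH11, FSCN1 and FILIP1L missed that rule but lay above the upper quartile of each array taken by itself. The quartiles are those of all 54613 probe sets, so taking each gene's brightest probe set favours a high place. The share of all genes placed so high was not counted. TWIST1 and SPARC lay under the lower quartile of every array, and PRRX1, FOXC2 and CNN1 under the median. CDH1, which encodes E-cadherin, ranged from 3.44 to 4.02, also under the median of every array. The epithelial keratin KRT18 read 12.55 to 12.64 with Qmimic, 12.61 to 12.72 with Dmimic and 12.19 to 12.50 with AllStar, above the upper quartile of every array. Of 22 epithelial genes measured, 12 lay above the median of every array and 8 under it.

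**Figure D1:**
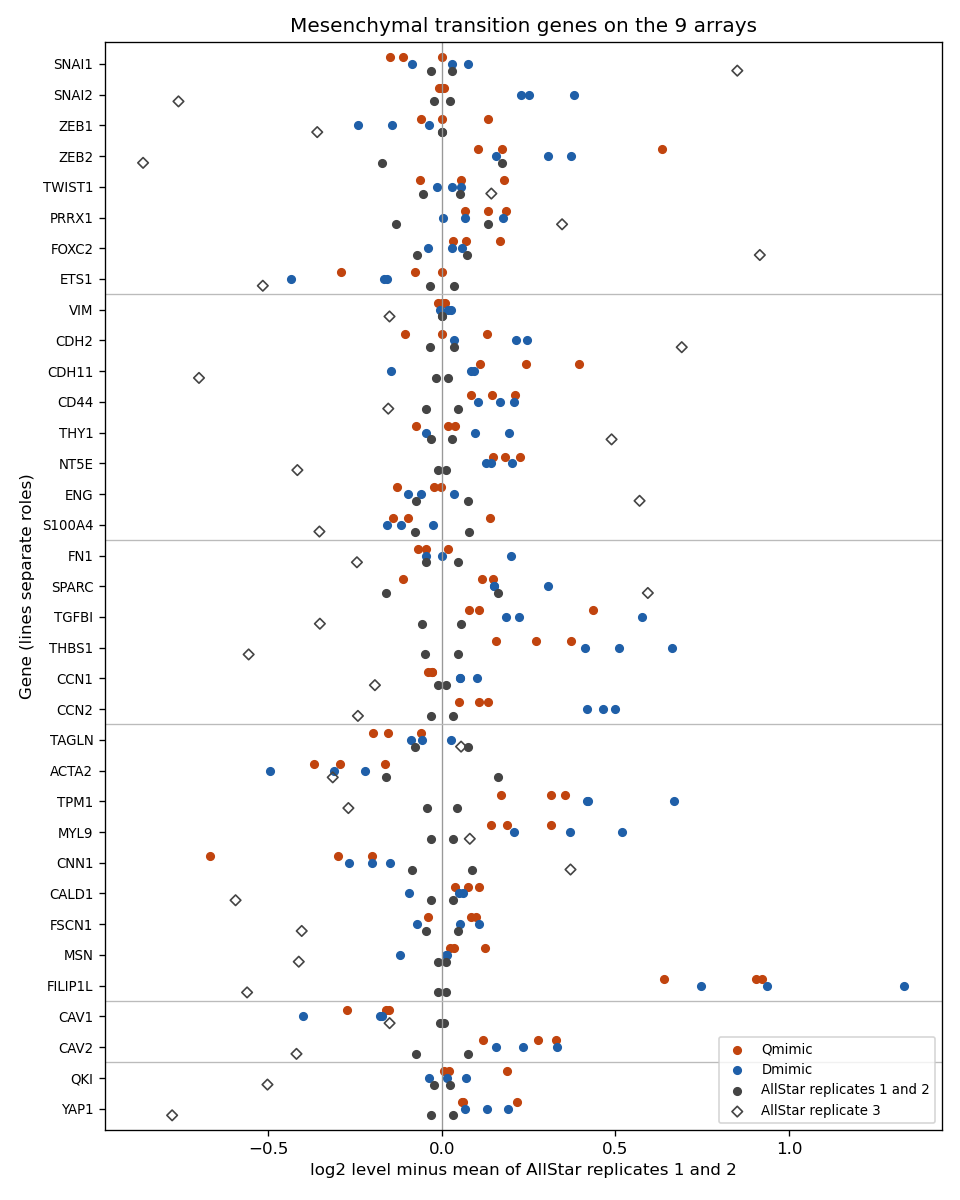
Log2 level of each of the 35 genes on each array, minus the mean of AllStar replicates 1 and 2 (horizontal axis, log2 units), with genes down the page in the order of their roles. Filled points are single arrays of Qmimic, Dmimic and AllStar, and open diamonds are AllStar replicate 3, which lies apart from both other AllStar arrays for most genes; FILIP1L shows the widest gap between mimic and AllStar arrays.

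FILIP1L was the 1 gene of this set called higher with the mimics on its brightest probe set. It is named for its likeness to the filamin A interacting protein FILIP1. Its log2 level was 8.89, 8.87 and 8.60 with Qmimic, 8.90, 8.71 and 9.30 with Dmimic, and 7.98, 7.96 and 7.40 with AllStar. All 6 mimic arrays thus lay above all 3 AllStar arrays, and the gap remained without AllStar replicate 3. A gene was called where limma's adjusted p, over all 54613 probe sets, was under 0.05 and the change at least 1.5-fold. With all 9 arrays the mean of both mimics against AllStar gave 2.14-fold (log2 1.10 ± 0.16 SE, adjusted p = 0.0498), while neither mimic alone passed (2.01-fold for Qmimic, adjusted p = 0.135; 2.28-fold for Dmimic, adjusted p = 0.0785). That call was lost when any 1 of the other 8 arrays was left out, with adjusted p of 0.0674 to 0.188. Without AllStar replicate 3 the change was 1.77-fold with Qmimic (log2 0.82 ± 0.15 SE, adjusted p = 0.0288) and 2.01-fold with Dmimic (log2 1.00 ± 0.15 SE, adjusted p = 0.0155), and for both mimics 1.88-fold (adjusted p = 0.0114). The Qmimic call in turn was lost when Qmimic replicate 1 or 2 was also left out. Leaving out either remaining AllStar array as well leaves AllStar with 1 array, whose spread is then taken from the mimic groups alone, and neither mimic was called in those fits.

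No other gene of the set was called against AllStar on its brightest probe set in either fit. Calls on other probe sets are given further below. With all 9 arrays, 0 of 35 were called for Qmimic, where 0% of all genes were higher and 0% lower. For Dmimic 0 of 35 were called, against 0.0101% of all genes higher and 0% lower. At an unadjusted limma p under 0.05 there were 9 of 35 genes for Qmimic and 12 of 35 for Dmimic, against 3900 and 3425 of all 19775 genes. For both mimics together 1 of 35 was called, against 0.116% of all genes higher and 0.0152% lower. FILIP1L was again the 1 gene called in each of these comparisons without AllStar replicate 3. The share of all genes called was then 0.44% higher and 0.253% lower for Qmimic, 0.622% and 0.647% for Dmimic, and 0.597% and 0.445% for both.

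The median change over the set was small. In log2 it was 0.14 with Qmimic and 0.13 with Dmimic, beside -0.02 and -0.01 over all genes. Of the 35 changes 25 and 22 were above 0, beside 9304 and 9503 of all 19775 genes. In the fit of the 8 arrays without AllStar replicate 3 the medians were 0.06 and 0.05, beside -0.01 and 0.01 over all genes. The changes above 0 were then 22 with Qmimic and 26 with Dmimic, beside 9464 and 10396 of all 19775 genes. Every Qmimic array lay above every AllStar array for 13 of 35 genes (19.2% of all genes) and below for 2 (11% of all genes). For Dmimic it was 12 above (17.1% of all genes) and 2 below (7.13% of all genes), and the 2 below were CNN1 and CAV1 for both mimics. Without AllStar replicate 3 the genes above were again 13 for Qmimic (22.6% of all genes) and 12 for Dmimic (22% of all genes). Those below were then 4 for Qmimic (21.1% of all genes), namely CCN1, ACTA2, CNN1 and CAV1, and 5 for Dmimic (17.8% of all genes), namely ZEB1, ETS1, ACTA2, CNN1 and CAV1. Both mimics are compared with the same AllStar arrays, so these counts share their reference values. On all 9 arrays those values include AllStar replicate 3, which read low at the higher levels over all probe sets. The 95% interval lay within 1.5-fold in either direction for 21 of 35 genes with Qmimic and 22 of 35 with Dmimic on all 9 arrays, beside 71.6% and 74.2% of all genes. In the fit without AllStar replicate 3 it did so for 32 of 35 with Qmimic and 28 of 35 with Dmimic, beside 93.4% and 92.6% of all genes.

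**Figure D2:**
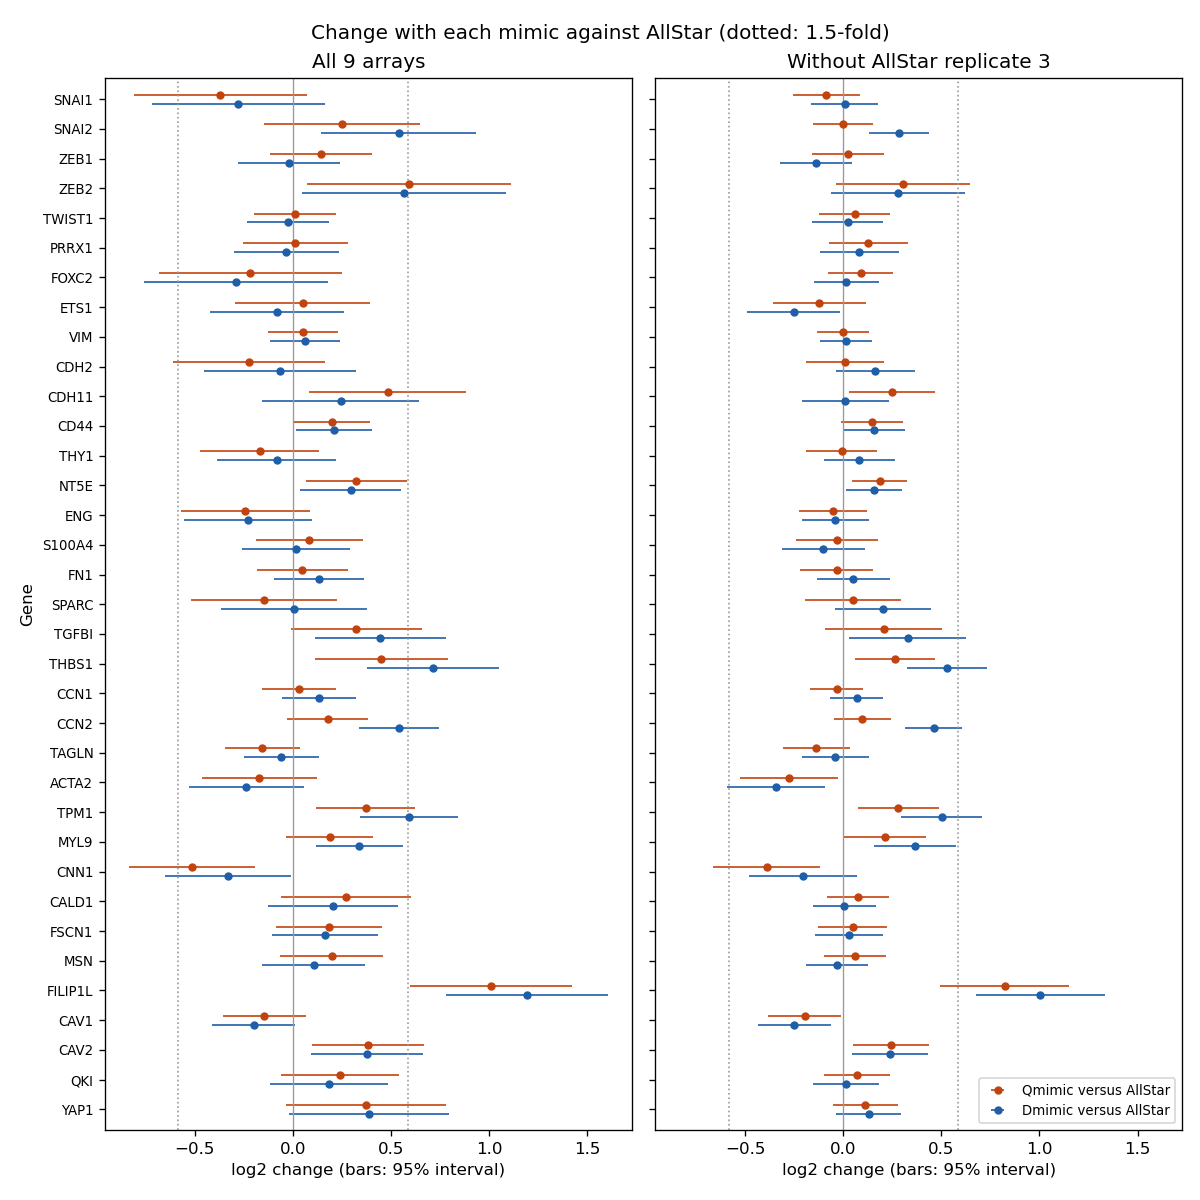
Log2 change of each gene with Qmimic and with Dmimic against AllStar (horizontal axis, with 95% intervals from limma), for all 9 arrays on the left and without AllStar replicate 3 on the right; dotted lines mark 1.5-fold. FILIP1L lies farthest to the right in both panels, and intervals narrow without the array that stands apart.

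The transcription factors showed no called change. SNAI1, a repressor of E-cadherin, read 5.55, 5.70 and 5.59 with Qmimic, 5.62, 5.73 and 5.78 with Dmimic, and 5.67, 5.73 and 6.55 with AllStar. The groups overlapped, and the high AllStar value is that of replicate 3. Its log2 difference from AllStar was -0.37 with Qmimic on all 9 arrays and -0.09 without that array.

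SNAI2, a repressor related to SNAI1, read 9.0, 9.01 and 9.0 with Qmimic, 9.26, 9.23 and 9.39 with Dmimic, and 9.03, 8.98 and 8.25 with AllStar. Dmimic arrays lay above all others, and Qmimic arrays lay within the AllStar range. Against AllStar the Dmimic difference was 0.54 (adjusted p = 0.269), and 0.29 without AllStar replicate 3 (adjusted p = 0.0607), neither past the test.

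ZEB1, the other main class of E-cadherin repressor, averaged 9.99 ± 0.10 with Qmimic, 9.82 ± 0.10 with Dmimic and 9.84 ± 0.21 with AllStar (SD, n = 3 each). ZEB2 averaged 5.34 ± 0.29 with Qmimic, 5.31 ± 0.11 with Dmimic and 4.75 ± 0.53 with AllStar, and its AllStar values of 5.21, 4.86 and 4.17 were low mainly in replicate 3. Without that array the ZEB2 difference was 0.30 with Qmimic (95% interval -0.04 to 0.65) and 0.28 with Dmimic (-0.06 to 0.62). ETS1, a factor linked to invasion genes, differed by -0.12 with Qmimic and by -0.25 with Dmimic without AllStar replicate 3 (adjusted p = 0.592 and 0.256). TWIST1, PRRX1 and FOXC2, developmental factors of mesenchyme, stayed within 0.13 of AllStar in that fit, and the first of them had levels of 2.87 to 3.11 on all 9 arrays.

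The cytoskeletal and surface markers were likewise uncalled. VIM, the intermediate filament vimentin that defines the mesenchymal state, read 13.67, 13.69 and 13.68 with Qmimic, 13.67, 13.70 and 13.69 with Dmimic, and 13.68, 13.68 and 13.53 with AllStar. The 8 arrays other than AllStar replicate 3 lay within 13.67 to 13.70. On the other VIM probe set the difference without that array was -0.31 with Qmimic and -0.25 with Dmimic (adjusted p = 0.215 and 0.331). N-cadherin (CDH2) differed by 0.01 with Qmimic and 0.16 with Dmimic without AllStar replicate 3.

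CDH11, a cadherin of mesenchymal cells, read 8.40, 8.25 and 8.12 with Qmimic, 8.09, 7.86 and 8.10 with Dmimic, and 7.99, 8.03 and 7.31 with AllStar. All Qmimic arrays lay above the AllStar and the Dmimic arrays. The Qmimic difference of 0.48 was 0.25 without AllStar replicate 3, with adjusted p of 0.264 and 0.220.

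CD44, the hyaluronan receptor, and NT5E, the CD73 ectoenzyme that makes adenosine, were above AllStar on all arrays of both mimics. NT5E read 11.90, 11.82 and 11.86 with Qmimic, 11.80, 11.82 and 11.88 with Dmimic, and 11.69, 11.67 and 11.26 with AllStar. Without AllStar replicate 3 the differences were small, 0.18 with Qmimic and 0.16 with Dmimic (adjusted p = 0.163 and 0.240). Those of CD44 were 0.15 with Qmimic and 0.16 with Dmimic. THY1, the TGF-beta co-receptor ENG and the calcium-binding protein S100A4 overlapped between groups, and without that array their differences from AllStar ran from -0.10 to 0.08.

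Among the matrix and matricellular genes, differences were mostly larger with Dmimic. THBS1, thrombospondin 1, read 11.04, 11.14 and 10.92 with Qmimic, 11.28, 11.18 and 11.43 with Dmimic, and 10.81, 10.72 and 10.21 with AllStar. The 3 groups did not overlap, with Dmimic highest. Against AllStar the Dmimic difference was 0.71 (1.64-fold, adjusted p = 0.125), and 0.53 without AllStar replicate 3 (1.44-fold, adjusted p = 0.0238), past the adjusted p but under 1.5-fold. For Qmimic it was 0.45 with all 9 arrays and 0.27 without that array (adjusted p = 0.241 and 0.162).

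CCN2, a secreted matricellular protein also known as CTGF, read 12.31, 12.23 and 12.29 with Qmimic, 12.65, 12.60 and 12.68 with Dmimic, and 12.15, 12.21 and 11.94 with AllStar. Dmimic arrays stood clear of all others, while the Qmimic arrays lay just above AllStar. The Dmimic difference was 0.54 (adjusted p = 0.0893), and 0.46 without AllStar replicate 3 (1.38-fold, adjusted p = 0.0141). For Qmimic it was 0.18 with all 9 arrays and 0.10 without that array (adjusted p = 0.343 and 0.478). Its paralogue CCN1 read 12.35 ± 0.01 with Qmimic, 12.45 ± 0.03 with Dmimic and 12.32 ± 0.11 with AllStar.

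TGFBI, a matrix protein induced by TGF-beta, averaged 10.69 ± 0.20 with Qmimic, 10.81 ± 0.22 with Dmimic and 10.36 ± 0.21 with AllStar. Every mimic array lay above AllStar, and the Dmimic difference of 0.33 without AllStar replicate 3 had an adjusted p of 0.240. Fibronectin (FN1) differed by -0.03 with Qmimic and 0.05 with Dmimic in that fit, and SPARC, at a low level, by 0.05 with Qmimic and 0.20 with Dmimic.

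The actin and contractile genes went in both directions. TPM1, a tropomyosin that stabilises actin filaments, read 10.76, 10.72 and 10.58 with Qmimic, 10.82, 10.83 and 11.07 with Dmimic, and 10.45, 10.36 and 10.14 with AllStar. As for THBS1 the groups were separate, with Dmimic highest. The Dmimic difference was 0.59 (1.51-fold, adjusted p = 0.0997), and 0.50 without AllStar replicate 3 (1.42-fold, adjusted p = 0.0297). With Qmimic it was 0.37 on all 9 arrays and 0.28 without that array (adjusted p = 0.221 and 0.150).

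MYL9, a myosin regulatory light chain, lay above AllStar on all mimic arrays, by 0.21 with Qmimic and 0.37 with Dmimic without AllStar replicate 3 (adjusted p = 0.266 and 0.0735). CNN1, calponin 1, lay below instead, at levels under the median of every array. At levels of 4 to 6, AllStar replicate 3 read higher over all probe sets, by a median of 0.21. It read 4.84, 4.47 and 4.94 with Qmimic, 4.94, 5.0 and 4.88 with Dmimic, and 5.06, 5.23 and 5.51 with AllStar. In the fit without AllStar replicate 3 the differences were -0.39 with Qmimic and -0.21 with Dmimic (adjusted p = 0.133 and 0.448).

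ACTA2, smooth muscle actin, read 5.81, 6.01 and 5.89 with Qmimic, 5.96, 5.87 and 5.68 with Dmimic, and 6.34, 6.02 and 5.86 with AllStar. The groups overlapped through AllStar replicate 3, and without it the differences were -0.28 with Qmimic and -0.34 with Dmimic (adjusted p = 0.231 and 0.144). TAGLN differed by -0.14 with Qmimic and -0.04 with Dmimic in that fit, and CALD1, FSCN1 and MSN, which encode caldesmon, fascin and moesin, by at most 0.07 in size with either mimic.

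Caveolin 1 and 2, which form membrane caveolae together, lay on opposite sides of AllStar. CAV1 read 12.01, 12.13 and 12.12 with Qmimic, 12.10, 12.11 and 11.88 with Dmimic, and 12.29, 12.28 and 12.13 with AllStar. CAV2 read 11.32, 11.37 and 11.16 with Qmimic, 11.19, 11.27 and 11.37 with Dmimic, and 11.11, 10.96 and 10.62 with AllStar. Neither group of mimic arrays overlapped AllStar for either gene, with CAV1 below and CAV2 above. The CAV1 differences without that array were -0.20 with Qmimic and -0.25 with Dmimic (adjusted p = 0.251 and 0.149). The CAV2 differences were 0.24 with Qmimic and 0.24 with Dmimic (adjusted p = 0.180 and 0.186).

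Of the regulators, YAP1, the coactivator of TEAD factors, read 10.86, 11.02 and 10.87 with Qmimic, 10.99, 10.93 and 10.87 with Dmimic, and 10.84, 10.77 and 10.03 with AllStar. Its differences were 0.37 with Qmimic and 0.39 with Dmimic, but 0.11 with Qmimic and 0.13 with Dmimic without AllStar replicate 3. QKI, an RNA-binding protein that acts in splicing during the transition, differed by 0.07 with Qmimic and 0.01 with Dmimic in that fit.

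**Figure D3:**
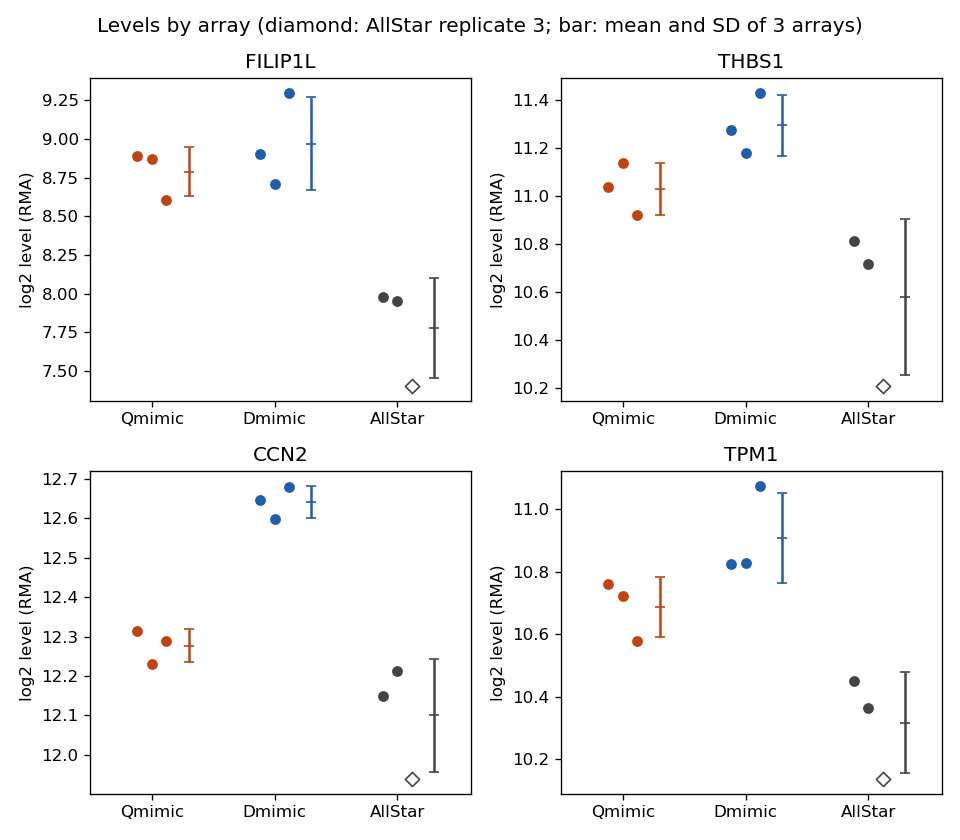
Log2 RMA level of FILIP1L, THBS1, CCN2 and TPM1 on each array (points) by group, with the mean and SD of the 3 arrays beside them and AllStar replicate 3 as a diamond. Dmimic arrays lie above the Qmimic arrays for THBS1, CCN2 and TPM1, and overlap them for FILIP1L.

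On the brightest probe sets, THBS1, CCN2, TPM1 and FILIP1L were the 4 genes past the adjusted p at any fold in the absence of AllStar replicate 3. All 4 passed for Dmimic (1.79% of all genes higher) and for both mimics together (2.49% of all genes higher), and FILIP1L alone for Qmimic (1.32% of all genes higher). In settings that kept AllStar replicate 3, Dmimic passed for THBS1 and CCN2 with cyclic loess. It passed for CCN2 also with repeated quantile normalisation and with a trend in eBayes. With array weights Dmimic passed for THBS1, CCN2 and TPM1. That setting nearly left AllStar replicate 3 out, at a weight of 0.0572, and gave AllStar replicate 2 a weight of 5.17. With only 1 AllStar array kept, assumed to vary like the mimic arrays, the adjusted p of THBS1, CCN2 and TPM1 for Dmimic ran from 0.121 to 0.223.

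The promoters of CCN2, THBS1 and FILIP1L, 3 of these 4 genes, are shown because each holds the TEAD motif GGAATG or its complement within the 250 bases before the annotated start. They are RefSeq sequences (GRCh38.p14) on the gene's strand, with the motif in capitals. CCN2 lies at chr6:131951373-131951622 (minus strand), THBS1 at chr15:39580829-39581078 (plus strand) and FILIP1L at chr3:99876174-99876423 (minus strand).
CCN2: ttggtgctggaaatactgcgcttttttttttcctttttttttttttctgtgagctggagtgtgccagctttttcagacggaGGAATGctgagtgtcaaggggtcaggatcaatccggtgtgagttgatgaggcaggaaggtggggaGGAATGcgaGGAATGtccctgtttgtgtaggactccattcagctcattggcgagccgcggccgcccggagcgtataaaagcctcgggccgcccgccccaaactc
THBS1: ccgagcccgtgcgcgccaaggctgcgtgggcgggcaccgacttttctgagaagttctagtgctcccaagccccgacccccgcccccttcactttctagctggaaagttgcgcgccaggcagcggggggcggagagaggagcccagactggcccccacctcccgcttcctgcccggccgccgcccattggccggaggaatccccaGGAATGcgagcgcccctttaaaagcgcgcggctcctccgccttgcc
FILIP1L: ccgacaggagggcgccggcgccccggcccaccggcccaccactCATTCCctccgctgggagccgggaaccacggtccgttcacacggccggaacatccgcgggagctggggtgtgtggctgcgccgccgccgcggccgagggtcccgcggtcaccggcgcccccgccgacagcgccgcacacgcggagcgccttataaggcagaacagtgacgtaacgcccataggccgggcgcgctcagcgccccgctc

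CCN2 held 3 copies, ending 163, 98 and 89 bases before the start, and THBS1 and FILIP1L held 1 each, 40 and 201 bases before it. The TPM1 window held none. A promoter was found for 23 of the 35 genes, and 6 of them (FILIP1L, SPARC, CCN2, CALD1, YAP1 and THBS1) held GGAATG on either strand, or 26.1%, against 11.9% of 27305 promoters of the same length. Of the other 5 motifs searched, the CArG box of SRF was in 1 of 23 (FILIP1L; 1.14% of all promoters), TGANTCA of AP-1 in 0 of 23 (6.6%) and GTCTAG or CAGACA of SMAD factors in 3 of 23 (17.9%). The CACCTG E-box that SNAI and ZEB factors bind was in 2 of 23 (17.5%), S100A4 and ZEB1, and TATAAA on the gene's strand in 2 of 23 (7.17%). The TEAD matches in the sequences shown overlapped 0 other motifs. Letter matches in so short a window describe the sequence, and binding was not measured.

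The comparison of Qmimic with Dmimic does not use the AllStar levels, though AllStar replicate 3 enters its estimate of spread. With all 9 arrays 0 of 35 genes were called, against 0% of all genes higher and 0% lower with Qmimic, and 1 gene, CCN2, had an unadjusted limma p under 0.05 (502 of all 19775 genes). All Qmimic arrays lay above all Dmimic arrays for CDH11 and MSN (8.12% of all genes) and below for SNAI2, SPARC, THBS1, CCN1, CCN2 and TPM1 (9.4% of all genes). All 6 matrix and matricellular genes read lower with Qmimic than with Dmimic on average, by 0.08 to 0.36 in log2. Over all genes 54.1% read lower, and SPARC, 1 of the 6, lay under the median of every array. The median difference over the 35 genes was -0.01, as over all genes.

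CCN2 differed most, by -0.36 (95% interval -0.57 to -0.16, adjusted p = 0.99991). Without AllStar replicate 3 its interval was -0.49 to -0.23 and the adjusted p 0.0436, at 1.29-fold, so it passed the adjusted p but not the fold. It was the 1 gene of 35 to do so (0.223% of all genes lower), and 0 of 35 were called at 1.5-fold (0.0101% of all genes higher, 0.086% lower). Under the 3 other normalisations of those 8 arrays, added after the data were seen, its adjusted p was 0.0505 to 0.0575. SNAI2 differed by -0.29 (adjusted p = 0.125 without AllStar replicate 3), THBS1 by -0.26 (0.286), TPM1 by -0.22 (0.366) and CDH11 by 0.24 (0.360). For FILIP1L the difference was -0.18 with an interval of -0.48 to 0.11 in that fit. The interval lay within 1.5-fold in either direction for all 35 genes without AllStar replicate 3, and for 31 of 35 with it.

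Genes with several probe sets did not always give 1 answer. Over the 122 probe sets, with all 9 arrays, FILIP1L on 204135_at for both mimics was the 1 called. In the fit of 8 arrays, 3 of 122 were called higher with Qmimic (0.54% of all probe sets in either direction) and 6 of 122 with Dmimic (0.864%), none lower. FILIP1L passed on 2 of 3 probe sets, with a rise of 0.87 with Qmimic and 1.12 with Dmimic on 1554966_a_at, whereas 1554965_at, dim at 2.98 to 3.64, differed by -0.18 with Qmimic and 0.03 with Dmimic.

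THBS1 passed with Dmimic on 3 of its 7 probe sets, of which the brightest, 201110_s_at, was not 1. The largest rise was on 235086_at, which read 6.94, 6.94 and 6.69 with Qmimic, 7.82, 7.44 and 8.43 with Dmimic, and 6.27, 6.36 and 6.17 with AllStar. The groups were separate, and the change against AllStar was 1.46-fold with Qmimic (adjusted p = 0.220) and 3.0-fold with Dmimic (log2 1.59, adjusted p = 0.0126). On 201109_s_at and 201108_s_at the Qmimic change was 0.08 and 0.07, and the Dmimic change 0.74 and 0.70 (adjusted p = 0.0159 and 0.0221 for Dmimic). On 201109_s_at the difference between Qmimic and Dmimic itself was called, at -0.66 (1.58-fold, adjusted p = 0.0359).

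QKI passed on 1 of 10 probe sets, with both mimics. That probe set, 212636_at, read 7.47, 7.49 and 7.30 with Qmimic, 7.59, 7.59 and 7.99 with Dmimic, and 6.72, 6.72 and 5.55 with AllStar, and was not called with all 9 arrays. Its rise without AllStar replicate 3 was 0.70 with Qmimic and 1.00 with Dmimic (adjusted p = 0.0231 and 0.00830), while the brightest QKI probe set differed by 0.07 with Qmimic and 0.01 with Dmimic. CAV2 on 203323_at was 0.42 above AllStar with Qmimic and 0.56 with Dmimic (adjusted p = 0.0336 and 0.0136), just under 1.5-fold. NT5E on 227486_at differed from AllStar by -0.50 with Qmimic and -0.54 with Dmimic (adjusted p = 0.0432 and 0.0308), against the sign of its brightest probe set. In the same fit the 6 probe sets of TPM1 differed from AllStar by -0.09 to 0.28 with Qmimic and -0.04 to 0.50 with Dmimic. Of them 4 were above 0 with each mimic. The 13 of CD44 ran from -0.29 to 0.54 with Qmimic, 7 above 0, and from -0.06 to 0.51 with Dmimic, 9 above 0. Their smallest adjusted p was 0.0476 with Qmimic, 0.0502 with Dmimic and 0.0290 with both mimics together, all under 1.5-fold. For ZEB1 the 4 probe sets ran from -0.41 to 0.02 with Qmimic and from -0.40 to -0.14 with Dmimic. Those of ETS1, 3 in number, ran from -0.44 to -0.12 with Qmimic and from -0.40 to -0.25 with Dmimic. For FN1 the 7 ran from -0.44 to 0.09 with Qmimic, 1 above 0, and from -0.16 to 0.12 with Dmimic, 5 above 0. None of these passed the adjusted p. The transcript variants behind these probe sets were not examined.

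**Figure D4:**
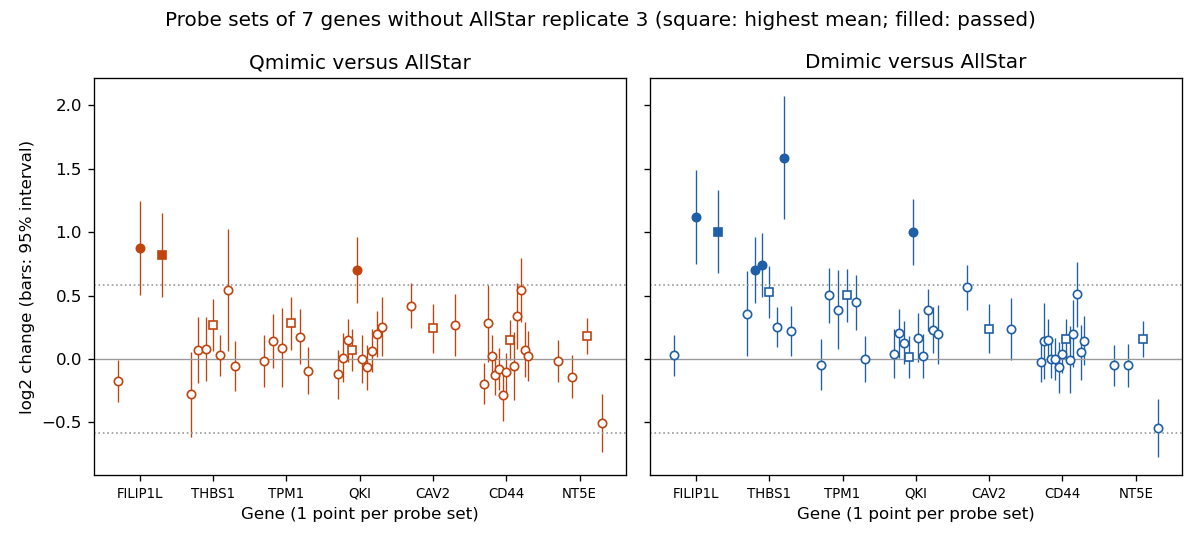
Log2 change against AllStar of every probe set of 7 genes without AllStar replicate 3, with 95% limma intervals, for Qmimic on the left and Dmimic on the right. Squares are the probe sets with the highest mean, filled symbols passed the adjusted p and 1.5-fold, and dotted lines mark 1.5-fold. FILIP1L, THBS1, TPM1, QKI, CD44 and NT5E each hold probe sets that differ from one another.

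The epithelial counterpart held no called gene in either fit. Of 22 of 23 listed epithelial genes that were measured, 0 were called for either mimic in either fit, and the smallest adjusted p for a single mimic was 0.115. Their median change without AllStar replicate 3 was -0.01 with Qmimic and -0.01 with Dmimic. CDH1 read 3.53, 3.44 and 3.68 with Qmimic, 3.76, 3.57 and 3.64 with Dmimic, and 3.59, 3.76 and 4.02 with AllStar, and differed by -0.13 with Qmimic and -0.02 with Dmimic in that fit. The groups overlapped. On all 6 mimic arrays 5 of the 22 lay above all AllStar arrays (12.8% of all genes). These were the keratins KRT8, KRT18 and KRT19 and the tight junction claudins CLDN1 and CLDN7. MARVELD3 was the 1 below (4.21% of all genes). Without AllStar replicate 3 the same 5 lay above (2918 of all 19775 genes), and EPCAM joined MARVELD3 below (2280 of all 19775). EPCAM read 7.93, 8.23 and 8.04 with Qmimic, 8.02, 8.0 and 7.52 with Dmimic, and 8.24, 8.36 and 7.25 with AllStar. For Qmimic alone OVOL1 and CLDN3 also lay below, making 4 in that fit (21.1% of all genes) against 5 above (22.6%). The summed signal of the list, in log2, was 13.92 to 13.97 with Qmimic, 13.96 to 14.05 with Dmimic and 13.51 to 13.87 with AllStar, so on this sum, which the brightest genes dominate, the mimic arrays stood apart from AllStar.

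Among 17 further transcription factors and cofactors of the transition, 1 rose and 1 fell. In the fit of 8 arrays 1 was called higher with Qmimic (0.44% of all genes) and with Dmimic (0.622%), and 1 lower with Dmimic (0.647%). HMGA2, a chromatin protein that promotes SNAI1 and TWIST1 expression, read on the brightest of its 9 probe sets 11.003, 10.89 and 10.75 with Qmimic, 10.61, 10.50 and 11.13 with Dmimic, and 9.67, 9.72 and 9.39 with AllStar. In the fit of 8 arrays it rose 2.28-fold with Qmimic and 2.08-fold with Dmimic (adjusted p = 0.00981 and 0.0158), and with all 9 arrays it was called for both mimics together (2.33-fold, adjusted p = 0.0341). LEF1, a DNA-binding partner of beta-catenin, read 7.30, 7.61 and 7.68 with Qmimic, 7.28, 7.43 and 6.67 with Dmimic, and 8.26, 8.41 and 7.94 with AllStar. It fell with Dmimic without AllStar replicate 3 (2.32-fold lower, adjusted p = 0.0195). With Qmimic the value was 1.75-fold lower (adjusted p = 0.0666), and the difference between the mimics had an adjusted p of 0.431.

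Of 21 YAP and TEAD pathway genes, 1 was called for a single mimic, higher with Dmimic without AllStar replicate 3 (0.622% of all genes higher). ANKRD1, a known YAP target, read 8.57, 8.46 and 8.48 with Qmimic, 9.02, 8.30 and 9.09 with Dmimic, and 7.83, 7.79 and 7.05 with AllStar. It rose with Dmimic without AllStar replicate 3 (1.99-fold, adjusted p = 0.0306), and its Qmimic value was 1.62-fold (adjusted p = 0.0895). AXL, which this list also holds, went the other way, at 11.54, 11.85 and 11.83 with Qmimic, 11.77, 11.83 and 11.55 with Dmimic, and 12.27, 12.31 and 12.76 with AllStar. All mimic arrays lay below AllStar, by -0.55 with Qmimic and -0.57 with Dmimic without AllStar replicate 3 (adjusted p = 0.0394 and 0.0317, under 1.5-fold). On all 9 arrays 10 of the 21 lay above AllStar on every Qmimic array (19.2% of all genes) and 2 below (11%). For Dmimic 7 lay above (17.1%) and 2 below (7.13%). Without AllStar replicate 3 it was 11 above (22.6%) and 4 below (21.1%) for Qmimic. It was 7 above (22%) and 3 below (17.8%) for Dmimic. The median over the list was 0.19 with Qmimic and 0.21 with Dmimic on all 9 arrays, and 0.04 with Qmimic and near 0 with Dmimic without AllStar replicate 3.

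Of 20 measured SRF, MRTF and further actin genes, 1 was called, lower with Qmimic without AllStar replicate 3 (0.253% of all genes lower). RDX, radixin, a relative of MSN that links actin to the membrane, read 9.89, 10.10 and 10.19 with Qmimic, 10.66, 10.72 and 10.52 with Dmimic, and 10.74, 10.70 and 10.28 with AllStar. It fell with Qmimic without AllStar replicate 3 (1.58-fold lower, adjusted p = 0.0148) and differed from Dmimic by -0.57 (1.49-fold, adjusted p = 0.0359), while Dmimic and AllStar overlapped. With all 9 arrays RDX, LEF1, ANKRD1 and AXL were not called for either mimic.

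Markers of other cell types gave 0 called genes in either fit. These were 8 breast epithelial receptors and keratins, 11 fibroblast and endothelial markers and 5 of 8 listed leukocyte markers. In the fit of 8 arrays their medians ran from -0.05 to 0.08 with either mimic. The endothelial receptor KDR, 1 of the 11, passed the adjusted p there with Dmimic at under 1.5-fold (log2 0.46, adjusted p = 0.0388), beside 0.37 with Qmimic (adjusted p = 0.0761), and lay above AllStar on all 6 mimic arrays. The summed signal of the fibroblast and endothelial list, in log2, was 9.07 to 9.23 with Qmimic, 9.21 to 9.24 with Dmimic and 9.13 to 9.43 with AllStar, and that of the leukocyte list 7.59 to 7.77 with Qmimic, 7.71 to 7.76 with Dmimic and 7.62 to 8.0 with AllStar. That of the breast list was 11.50 to 11.57 with Qmimic, 11.27 to 11.56 with Dmimic and 11.05 to 11.43 with AllStar. Of the 5 leukocyte markers, PTPRC and NKG7 lay under the median of every array and CD14 and ITGAM above it.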

How the data were processed

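Total RNA of 9 wells was measured on 9 Affymetrix HG-U133 Plus 2.0 arrays, 3 per group, grouped by the sample titles. The authors deposited 1 log2 value per probe set and array, made with RMA per the series text. RMA corrects background, equalises the arrays' distributions and summarises probes. RMA and limma are also in the submitters' processing notes, with no version. The deposited distributions were still not equal. The span from lower to upper quartile was 2.99 on AllStar replicate 3, against 3.41 to 3.53 on the other arrays. The 62 control probe sets were left out, and no filter on low values was used. Of the probe sets, 41091 carry 1 gene symbol, 1801 several and 11721 none in the platform annotation used.

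In limma 3.58.1 (R 4.3.3), 1 model of 3 groups was fitted to all 54613 probe sets with eBayes moderation and Benjamini-Hochberg adjustment over all of them. A call needed an adjusted p under 0.05 and 1.5-fold. The same model was fitted without AllStar replicate 3. Adjusted p values come from these fits unless another setting is named beside them. The fits were tried on simulated data, with independent values and the same spread on every array for a probe set. Those data held no array set apart, so the trial cannot vouch for calls that depend on AllStar replicate 3. The members and lists were chosen with earlier results of these data known. All members are described. Of other lists, genes called for either mimic in either fit are named, with AXL and CDH1. The keratins, claudins, EPCAM, OVOL1, MARVELD3, KDR and leukocyte markers were added after their values were seen. The replicate numbers were not used as pairs. Differences from the group means correlated above 0.1 for 3 of 9 pairs of same-numbered arrays, over -0.276 to 0.219. With 3 arrays per group and AllStar replicate 3 apart, this check cannot show that the arrays were unpaired. Alternatives were each array left out, a replicate block, array weights, other normalisations, thresholds, filters and moderation, and the mean over a gene's probe sets.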

Additional observations from a re-analysis of the deposited data

How the results depend on the processing

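A total of 32 settings were tried. With 1 array left out, or AllStar replicate 3 and 1 further array, the genes called ranged from 0 to 1 for Qmimic, 0 to 2 for Dmimic and 0 to 1 for both mimics together, and 0 were called for Qmimic against Dmimic. Fits that kept 1 AllStar array assume that it varies like the mimic arrays. The second Dmimic call was THBS1 without AllStar replicate 3 and Dmimic replicate 2 (log2 0.59, adjusted p = 0.0159). Median member changes in those fits ran from 0.03 to 0.19 for Qmimic (0.0277 to 0.1894), 0.0409 to 0.1709 for Dmimic, 0.0428 to 0.1548 for both and -0.0444 to -0.0099 between the mimics.

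Array weights, which gave AllStar replicate 3 a weight of 0.0572 and AllStar replicate 2 one of 5.17, called 1 gene for Qmimic and 1 for Dmimic. Repeated quantile normalisation, cyclic loess and median centring of the 8 arrays without AllStar replicate 3, chosen after seeing the data, each called 1 and 1. Of all 9 arrays, quantile normalisation and cyclic loess called 1 for Dmimic. The gene was FILIP1L each time. For both mimics, 0 were called with a log2 threshold of 1.5 and with median centring (FILIP1L adjusted p = 0.0645). Its adjusted p over all settings ran from 5.58e-05 to 0.188.

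With the replicate block 0 were called for both mimics, with all 9 arrays (FILIP1L adjusted p = 0.112) or without AllStar replicate 3 (0.0684). The Dmimic median with the block was 0.0441 without that array. Whether the replicate numbers pair the arrays was not settled.

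The Qmimic median was 0.0281 with array weights, 0.0543 with quantile normalisation, 0.0446 with cyclic loess and 0.0397 with cyclic loess of the 8 arrays. That of Dmimic was 0.0333 with cyclic loess, and 0.0425 and 0.0244 with quantile normalisation and cyclic loess of the 8 arrays. No called change reversed. The cause of these shifts was not tested. By mean level, 6 of the genes lay outside the upper part of all probe sets; signal over background was not measured.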
